A study of Mus musculus with 20 samples.

Results

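Activins and follistatins are a set of secreted signals, receptors and binding proteins, and 7 of their genes were examined in mouse caecum tumours: Inhba, Inhbb, Acvr1, Acvr2a, Fst, Fstl1 and Fstl3. The genes were chosen by name. Each was represented by the probe set, annotated with that gene symbol alone, that had the highest mean over the 20 arrays, which gave a value for 6 of the 7 genes out of 17097 genes with such a probe set. No probe set carried Inhbb as its single symbol here, so Inhbb was not analysed. All 6 were above the filter on dim genes (4.16 on the log2 scale, the 25th percentile of all values) on 20 of 20 arrays, and 15556 genes passed it on at least 2 arrays and were tested. The genes were put forward with their treated minus control differences known, and their levels per line were part of how the set was put forward, so both are given as descriptions with no test. On GRCm38.p6 the RefSeq genes lie at chr13:16004256-16031609 (Inhba), chr2:58446438-58566828 (Acvr1), chr2:48814109-48903264 (Acvr2a), chr13:114452262-114458989 (Fst), chr16:37777055-37836516 (Fstl1) and chr10:79777274-79782630 (Fstl3).

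The tumours grew in the caecum of C57BL/6J mice from 5 tumour organoid lines, called MTO lines. Per the labels, MTO68 and MTO93 are parental lines of genotype LAKTP, MTO140 is an LAKTP line of type LiM, MTO54 is a parental LAKP line and MTO207 a parental LAKT line. What the letters mean is not explained there. In the published mouse model of that name the T and the P stand for altered alleles of Tgfbr2 and Trp53, so that LAKP tumour cells keep Tgfbr2 and LAKT tumour cells keep Trp53. For each line there were 2 control tumours and 2 from galunisertib-treated mice, which the labels mark LY. Galunisertib is a small molecule that blocks the kinase of the type I TGF-beta receptor, and it was given at 10 mg 2 times per day by gavage from day 11 until the end in week 5. The sources used here give neither the treatment of control mice nor the age of the animals. MTO140 was injected as intact spheroids, while the other 4 lines were first grown under the skin and transplanted as pieces, and a strip of arrays held the 2 control and 2 treated tumours of a line. Line and strip cannot be told apart, nor can MTO140 and its route of injection. LAKP and LAKT were each carried by a single line, so genotype and line cannot be told apart for them. RNA came from whole fragments, so the values join tumour cells and host cells, and in such bulk samples fewer cells of a type and less RNA per cell cannot be told apart.

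Activins are dimers of inhibin beta chains, which Inhba and Inhbb encode. They bind a type II receptor such as the product of Acvr2a, which recruits a type I receptor, and the kinase of the type I receptor passes the signal to SMAD2 and SMAD3, as TGF-beta does through its own receptors. Follistatin, from Fst, and the follistatin-like protein from Fstl3 wrap around activin and keep it from its receptors. Fstl1 encodes a secreted glycoprotein of mesenchymal cells that carries a follistatin domain but resembles the matrix protein SPARC more than follistatin. In the gut, activin signalling is known as a brake on epithelial growth and as a companion of wound repair and fibrosis.

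Array medians lay between 4.93 and 5.12, and the SD of the values of an array between 1.46 and 1.83. MTO68 control replicate 2 stood apart within its line, with an SD of 1.47 against 1.76 to 1.82 on the other MTO68 arrays. In MTO207 the SD was 1.46 on each control array, against 1.57 and 1.55 on the treated arrays. The labelled tissue was checked with 11 markers of colon epithelium, of which all 11 were above the filter level on 20 of 20 arrays, among them Epcam, with mean log2 levels of 10.8 in control and 11.0 in treated tumours, and Cdx2, with 7.73 and 7.99.

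Fstl3 and Fstl1 had the largest treated minus control differences of the 6 genes, Inhba was lower with a wider error, and Fst, Acvr1 and Acvr2a differed little when averaged over lines. The difference over 5 lines was -0.64 (SE 0.12) for Fstl3, -0.77 (SE 0.22) for Fstl1, -0.51 (SE 0.33) for Inhba, -0.21 (SE 0.14) for Acvr1, -0.13 (SE 0.14) for Fst and 0.02 (SE 0.13) for Acvr2a, on the log2 scale with 10 tumours per group. Thus 5 of the 6 were lower, with a median difference of -0.36, beside a median of 0.00 and 49.7% lower among all genes tested. At an adjusted p of 0.05, limma called 0% of all genes for treatment, the members included, while 1238 genes (7.96%) had an unadjusted p under 0.05. Mean levels were lower in 5 of 5 lines for Fstl3, Fstl1 and Inhba, which held for 3.28% of all genes. The members were put forward with this contrast known, and nothing further is read from these counts.

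**Figure D1:**
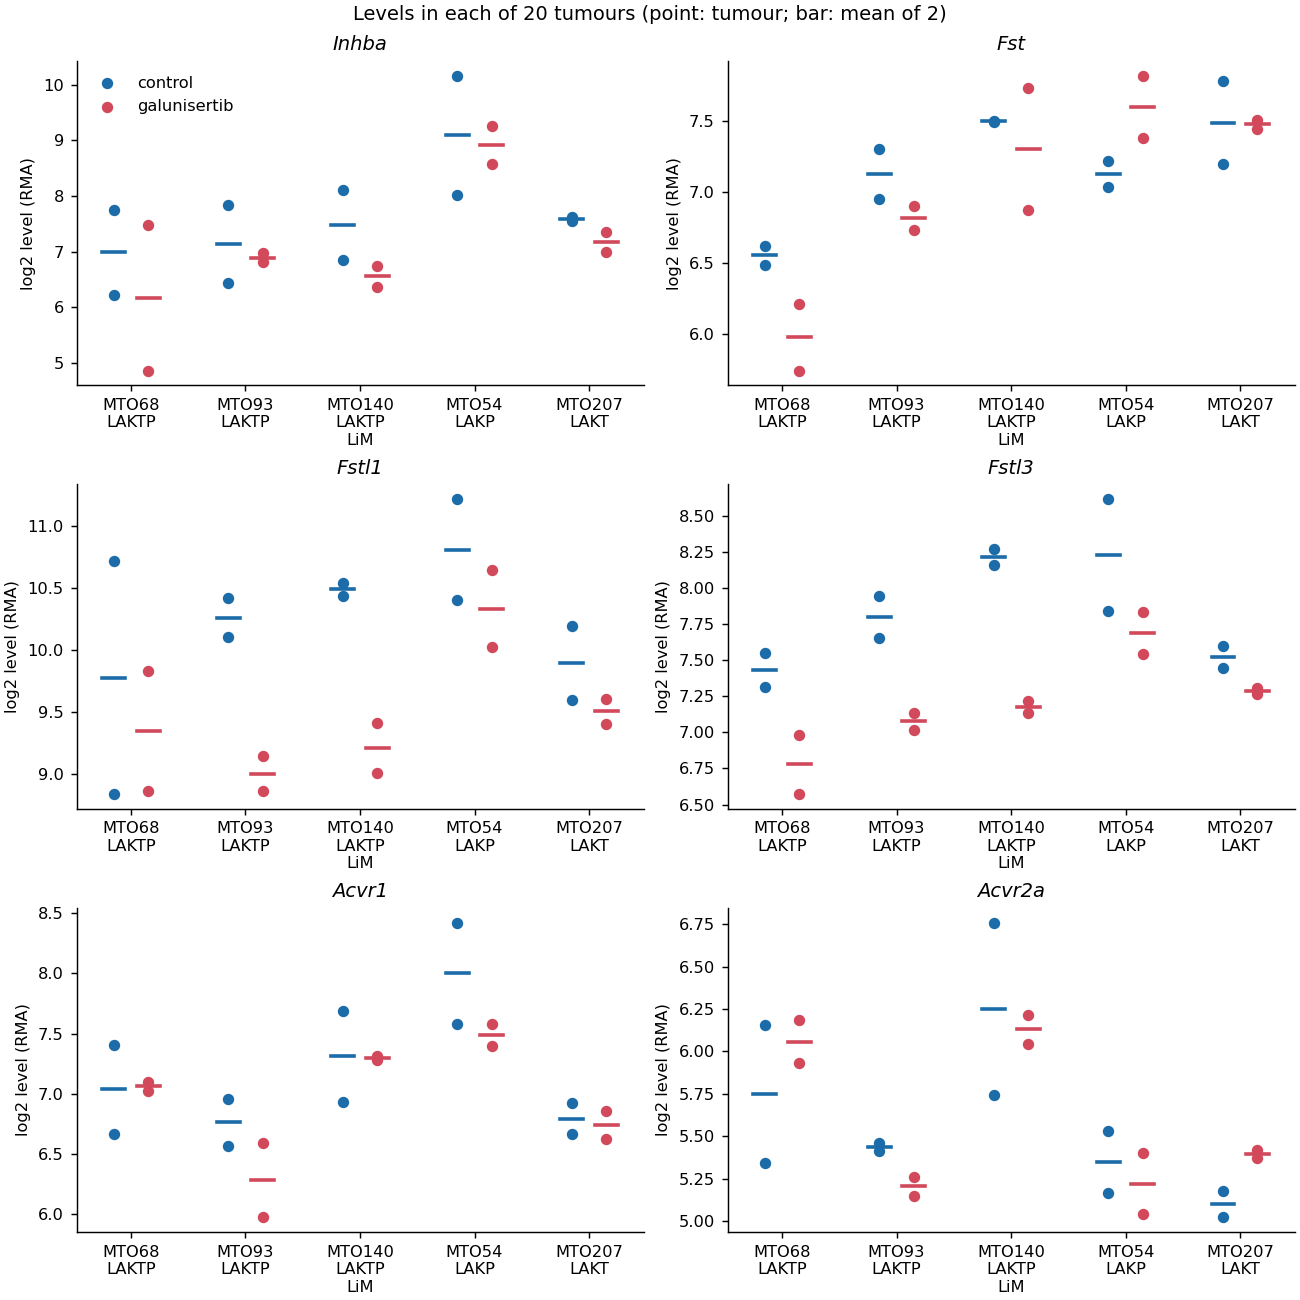
Log2 RMA levels of Inhba, Fst, Fstl1, Fstl3, Acvr1 and Acvr2a in 20 tumours, 1 panel per gene with its own axis. Points are tumours (blue control, red galunisertib), bars are means of 2 tumours, and lines stand along the horizontal axis with their genotype. The red points of Fstl3 lie below both blue points in each of the 5 lines.

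The ligand gene Inhba, which encodes the beta A chain of activin A, varied widely between tumours of the same group. In MTO68 its log2 levels were 7.75 and 6.22 in control tumours and 4.86 and 7.48 in treated tumours. In MTO93 they were 7.83 and 6.44 in control and 6.97 and 6.82 in treated tumours. In MTO140 they were 8.10 and 6.84 in control and 6.74 and 6.36 in treated tumours. Treated tumours lay below both controls in MTO140 and overlapped them in MTO68 and MTO93. MTO54 had 10.16 and 8.02 in control and 8.58 and 9.25 in treated tumours, and MTO207 had 7.62 and 7.56 in control and 7.0 and 7.35 in treated tumours. Thus the groups were apart in MTO140 and MTO207 alone. The 2 treated tumours were below the 2 controls in MTO140 for 12.6% of all genes and in MTO207 for 31.6%, so this ordering was common. Within lines the difference ran from -0.92 in MTO140 to -0.17 in MTO54, each with an SE of 0.82, and MTO140 alone exceeded that SE. Single tumours set the sign in 3 lines. The MTO68 difference was 0.50 without galunisertib replicate 1 and -2.13 without galunisertib replicate 2, the MTO93 difference was 0.46 without control replicate 1 and -0.94 without control replicate 2, and the MTO54 difference was 0.90 without control replicate 1 and -1.24 without control replicate 2. Over 5 lines the difference was -0.30 without MTO68 galunisertib replicate 1, and with arrays weighted by their quality it was -0.09 (SE 0.27). A second Inhba probe set averaged 3.94, was above the filter level on 2 of 20 arrays and differed by 0.00, so it carried little signal to compare.

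Inhba was highest in the LAKP line. Its mean over the 4 tumours of a line, 2 control and 2 treated, was 9.0 ± 0.92 in MTO54 (SD, n = 4). The other means were 7.38 ± 0.28 in MTO207, 7.02 ± 0.59 in MTO93, 7.01 ± 0.76 in MTO140 and 6.58 ± 1.33 in MTO68. These SDs also hold any difference between control and treated tumours. Of the 4 MTO54 tumours, 3 lay above all 16 others, and the lowest, at 8.02, lay below the highest tumour elsewhere at 8.10. At least 3 MTO54 tumours lay above all 16 others for 1.07% of all genes. Among control tumours alone, MTO54 averaged 9.09 and MTO207, next in order, 7.59. This gap of 1.5, with an SE of 0.82, rested largely on MTO54 control replicate 1 at 10.16, since the other MTO54 control had 8.02. The remaining neighbours in the order MTO207, MTO140, MTO93 and MTO68 differed by 0.12 to 0.34, less than that SE.

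Among the receptors, Acvr1 encodes a type I receptor of the BMP and activin family. Its control levels were 7.41 and 6.67 in MTO68, 6.95 and 6.57 in MTO93, 7.69 and 6.93 in MTO140, 8.42 and 7.58 in MTO54, and 6.66 and 6.92 in MTO207. Treated levels in the same order of lines were 7.02 and 7.10, 6.59 and 5.97, 7.28 and 7.31, 7.39 and 7.58, and 6.85 and 6.62. Control and treated tumours overlapped in all 5 lines. The difference was -0.51 in MTO54 and -0.48 in MTO93 (SE 0.33 each), and between -0.05 and 0.02 in the other lines. Leaving out control replicate 1 or 2 moved it to -0.09 or -0.94 in MTO54, and turned its sign in MTO68 (0.39 or -0.35) and MTO140 (0.37 or -0.40). Its other probe sets differed by -0.02 and -0.04 over 5 lines, against -0.21 for the brightest, which gave -0.34 with the array SD as a covariate and -0.13 without either MTO54 control replicate 1 or the whole of MTO54.

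Acvr1, too, was highest in MTO54, where control tumours averaged 8.00. The next line, MTO140, averaged 7.31, 0.69 lower with an SE of 0.33, although its control tumours overlapped those of MTO54. MTO68 at 7.04, MTO207 at 6.79 and MTO93 at 6.76 followed with gaps under that SE. From lowest to highest line the gap was 1.24.

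Acvr2a encodes a type II receptor that binds activin directly. In MTO68 the log2 levels were 6.16 and 5.34 in control and 6.19 and 5.93 in treated tumours, and in MTO93 they were 5.46 and 5.41 in control and 5.26 and 5.15 in treated tumours. In MTO140 the control levels were 6.76 and 5.74 and the treated levels 6.05 and 6.22. In MTO54 the levels were 5.53 and 5.17 in control and 5.40 and 5.04 in treated tumours, and in MTO207 they were 5.02 and 5.17 in control and 5.42 and 5.37 in treated tumours. The treated tumours were below both controls in MTO93 (14.4% of all genes) and above both in MTO207 (26.3% of all genes), and the groups overlapped in the other lines. Differences lay between -0.23 in MTO93 and 0.31 in MTO68, with an SE of 0.29. With the array SD as a covariate the difference went from 0.31 to -0.39 in MTO68 and from 0.30 to -0.04 in MTO207. In MTO207 the array SD was 1.46 on both control arrays and 1.57 and 1.55 on the treated arrays, so spread and treatment cannot be told apart there. Whether the spread of the arrays accounts for the higher treated means was not tested. The MTO68 difference was 0.71 without control replicate 1 and -0.10 without control replicate 2, the array with the narrow spread, and the difference over lines without the latter was -0.05. In MTO140 it was 0.39 without control replicate 1 and -0.63 without control replicate 2. Another 2 probe sets are annotated to both Acvr2a and its neighbour Orc4, with differences of 0.08 and -0.11, and cannot be given to either gene.

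In control tumours Acvr2a averaged 6.25 in MTO140, 5.75 in MTO68, 5.44 in MTO93, 5.35 in MTO54 and 5.10 in MTO207. Each neighbouring pair overlapped, and only the step from MTO68 to MTO140, at 0.50, and that from MTO93 to MTO68, at 0.31, exceeded the SE of 0.29. The span from lowest to highest was 1.15.

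Fst encodes follistatin, the antagonist that binds activin. In MTO68 its log2 levels were 6.62 and 6.49 in control and 5.74 and 6.21 in treated tumours. In MTO93 they were 7.30 and 6.95 in control and 6.90 and 6.73 in treated tumours. In MTO140 they were 7.50 and 7.50 in control and 7.74 and 6.87 in treated tumours. Treated tumours lay below both controls in MTO68 (23.2% of all genes) and MTO93, whereas the treated tumours of MTO140 fell on either side of the controls. In MTO54 the order turned, with 7.22 and 7.03 in control and 7.38 and 7.82 in treated tumours, an ordering that 17.8% of all genes showed in that line. MTO207 had 7.78 and 7.20 in control and 7.51 and 7.44 in treated tumours. The difference was 0.47 in MTO54 and negative elsewhere, from -0.58 in MTO68 and -0.31 in MTO93 to -0.20 in MTO140 and -0.01 in MTO207, each with an SE of 0.29. It was -0.63 without galunisertib replicate 1 and 0.24 without galunisertib replicate 2 in MTO140, and 0.28 without control replicate 1 and -0.31 without control replicate 2 in MTO207. Over the 4 lines other than MTO54 it was -0.27, over those other than MTO68 -0.01, and with array weights -0.02. A second, dimmer Fst probe set also had its only positive difference in MTO54, at 0.87.

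All 4 MTO68 tumours had less Fst than any of the 16 tumours of other lines, a separation that 0.437% of all genes showed. The highest MTO68 value was 6.62 and the lowest elsewhere 6.73. In control tumours MTO68 averaged 6.56, MTO54 7.13, MTO93 7.13, MTO207 7.49 and MTO140 7.50. The step from MTO68 to MTO54, 0.57, was about 1.99 times its SE of 0.29, and that from MTO93 to MTO207, 0.36, 1.27 times, while the neighbours MTO54 and MTO93, and MTO207 and MTO140, differed by 0.00 and 0.01.

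Fstl3 was the member whose control and treated tumours were apart in every line, while the size of its difference varied. In MTO68 its log2 levels were 7.55 and 7.32 in control and 6.57 and 6.98 in treated tumours. In MTO93 they were 7.95 and 7.66 in control and 7.01 and 7.14 in treated tumours. In MTO140 they were 8.16 and 8.27 in control and 7.22 and 7.14 in treated tumours. In each of these LAKTP lines both treated tumours lay below both controls. In MTO54 they were 8.61 and 7.84 in control and 7.55 and 7.83 in treated tumours, and in MTO207 they were 7.44 and 7.60 in control and 7.26 and 7.30 in treated tumours. Here too the groups were apart, but only narrowly in MTO54.

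Both treated tumours of Fstl3 were below both controls in 5 of 5 lines, an ordering that 0.122% of all genes showed, with 16.4% showing it in MTO54. Pooled over lines the control tumours ran from 7.32 through a median of 7.75 to 8.61, and the treated tumours from 6.57 through 7.18 to 7.83. The difference of -0.64 (SE 0.12) made treated tumours 35.7% lower on the linear scale. By line it was -1.04 in MTO140, -0.73 in MTO93, -0.65 in MTO68, -0.54 in MTO54 and -0.24 in MTO207 (SE 0.25 each). It lay between -0.70 and -0.59 in 20 omissions of a single tumour, and between -0.74 and -0.54 in 5 omissions of a line. The MTO54 difference depended on its controls, at -0.15 without control replicate 1 and -0.92 without control replicate 2.

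In control tumours Fstl3 averaged 8.23 in MTO54, 8.21 in MTO140, 7.80 in MTO93, 7.52 in MTO207 and 7.43 in MTO68. MTO54 and MTO140 were level to within 0.01, MTO140 and MTO93 were 0.41 apart and MTO93 and MTO207 0.28 apart with an SE of 0.25, and MTO207 and MTO68 were closer than that error.

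Promoter sequence is shown for Fstl3 and Fstl1, the members with the largest differences, because both differed in the same direction and SMAD proteins are known to bind short CAGAC-type elements. Each run is the 250 bases before the RefSeq start on GRCm38.p6, in the direction of the gene, for Fstl3 at chr10:79777024-79777273 and for Fstl1 at chr16:37776805-37777054, both on the plus strand, with matches to the motifs searched in capitals.
Fstl3: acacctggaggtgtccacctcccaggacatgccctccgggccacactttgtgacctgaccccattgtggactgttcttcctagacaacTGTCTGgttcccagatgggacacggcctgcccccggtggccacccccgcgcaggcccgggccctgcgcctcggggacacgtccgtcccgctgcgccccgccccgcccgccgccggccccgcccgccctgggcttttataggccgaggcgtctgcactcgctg
Fstl1: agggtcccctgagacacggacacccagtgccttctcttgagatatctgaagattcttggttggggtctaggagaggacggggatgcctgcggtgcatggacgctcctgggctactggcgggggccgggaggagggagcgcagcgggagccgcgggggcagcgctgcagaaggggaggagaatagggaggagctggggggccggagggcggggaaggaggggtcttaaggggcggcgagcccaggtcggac
The motifs were CAGACA, the palindrome GTCTAGAC and the AP-1 motif TGANTCA, on both strands and with no overlap among the matches. Fstl3 held a single CAGACA, read as its reverse complement in the printed strand, and Fstl1 held none of the 3. The shorter CAGAC was not searched for, so its reverse complement gtctg near the end of the Fstl3 run stays in lower case. Of the 6 members with a promoter in the RefSeq table (all but Fst), 1 held CAGACA, as did 17.1% of 32851 promoters of that length. GTCTAGAC was in 0.167% and TGANTCA in 6.75% of all promoters and in 0 of the 6. A match is a run of letters and not a binding site, and the arrays measured no binding.

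Fstl1 was also lower in treated tumours, with more spread than Fstl3. In MTO68 its log2 levels were 10.71 and 8.84 in control and 8.86 and 9.83 in treated tumours, and the groups overlapped. In MTO93 they were 10.42 and 10.10 in control and 8.86 and 9.14 in treated tumours, and in MTO140 they were 10.53 and 10.44 in control and 9.01 and 9.41 in treated tumours. In these 2 lines the treated tumours were at 0.418 and 0.413 of the control level on the linear scale. In MTO54 the levels were 11.21 and 10.40 in control and 10.02 and 10.64 in treated tumours, and in MTO207 they were 10.19 and 9.59 in control and 9.60 and 9.40 in treated tumours. The groups overlapped in both.

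By line the Fstl1 difference was -1.28 in MTO140, -1.26 in MTO93, -0.48 in MTO54, -0.43 in MTO68 and -0.39 in MTO207 (SE 0.49 each). The MTO68 value turned with a single control, at 0.51 without control replicate 1, -1.37 without control replicate 2 and 0.05 without galunisertib replicate 1. Over lines it kept between -0.92 and -0.66 in 20 omissions of a tumour. A second Fstl1 probe set gave -0.92 over 5 lines and was lower in 4 of 5, with MTO68 at 0.02. Control means ran from 9.77 in MTO68 through 9.89 in MTO207, 10.3 in MTO93 and 10.5 in MTO140 to 10.8 in MTO54, and no step between neighbours exceeded the SE of 0.49.

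**Figure D2:**
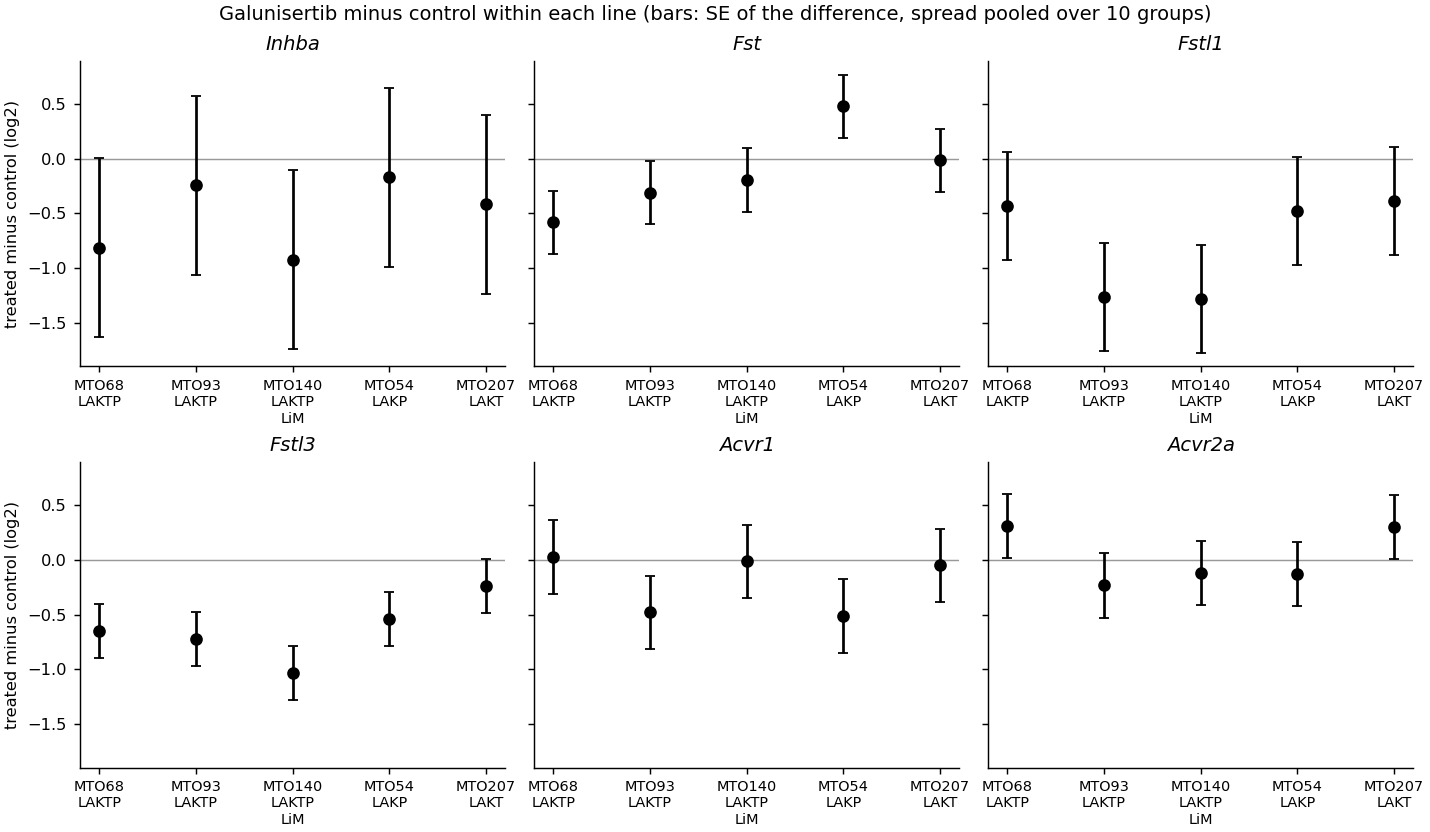
Treated minus control differences on the log2 scale for 6 genes in each of 5 lines. Points are differences of means of 2 tumours and bars are SEs with the spread pooled over 10 groups. Fstl3 and Fstl1 lie below 0 in each line, and Fst lies above 0 in MTO54 at 0.47.

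Markers of fibroblasts were lower in treated tumours, as were Fstl3, Fstl1 and Inhba. All 11 tested of 12 fibroblast markers had lower means, with a median difference of -0.62, and Pdgfra alone was too dim to test. Their summed level, as log2 of the linear sum, was 12.1 to 13.6 in control and 11.7 to 13.1 in treated tumours. The mean fibroblast difference, over all 12 markers with Pdgfra included, was -1.02 in MTO140, -0.66 in MTO68, -0.58 in MTO54, -0.52 in MTO93 and -0.23 in MTO207. Fstl3 differences in the same lines were -1.04, -0.65, -0.54, -0.73 and -0.24 (SE 0.25 each). The Fstl1 differences, in that order, were -1.28, -0.43, -0.48, -1.26 and -0.39 (SE 0.49 each), farthest from the markers in MTO93. Those of Inhba were -0.92, -0.81, -0.17, -0.24 and -0.42 (SE 0.82 each), farthest from the markers in MTO54. The marker means carry no SE here, so whether a member departed from the markers in a line was not tested. The part of fibroblast content in the member differences was not tested. Markers of pericytes and smooth muscle were lower for 9 of 9 (median -0.45, summed level 9.53 to 11.4 in control and 9.0 to 11.4 in treated tumours), and those of endothelium for 6 of 7 (median -0.22, 8.74 to 10.4 and 8.75 to 11.2).

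Colon epithelium markers were higher for 11 of 11, with a median of 0.26 and summed levels of 13.1 to 14.5 in control and 13.6 to 14.6 in treated tumours. Macrophage markers were lower for 5 of 7 (median -0.06, summed level 9.26 to 11.7 in control and 10.1 to 11.6 in treated tumours), neutrophil markers for 2 of 4 (median 0.02, 7.64 to 8.86 and 7.05 to 9.41) and T cell markers for 1 of 4 (median 0.06, 6.91 to 8.41 and 7.19 to 7.90). Of 4 mesothelial markers 3 were tested and 3 were lower (median -0.08, 7.23 to 8.26 and 6.87 to 8.34), with Wt1 below the filter. Of 4 adipocyte markers 2 (Adipoq and Fabp4) had a named probe set and both were lower (median -0.14, 6.25 to 9.38 and 5.87 to 8.80). For treatment 0 markers passed over all genes (limma). An unadjusted limma p under 0.05 was reached by 9 of 11 tested markers of fibroblasts and 4 of 9 of pericytes and smooth muscle. It was also reached by 3 of 7 of endothelium and 4 of 11 of epithelium, beside 7.96% of all genes tested.

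**Figure D3:**
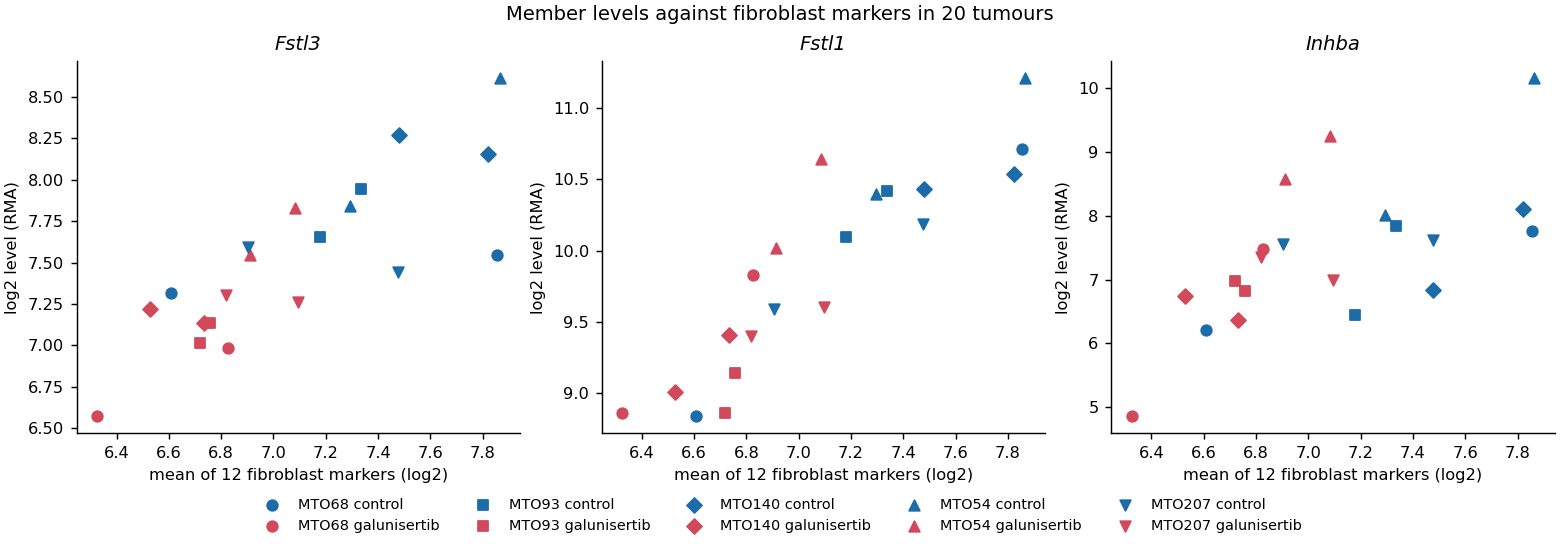
Log2 levels of Fstl3, Fstl1 and Inhba against the mean log2 level of 12 fibroblast markers in the same 20 tumours. Each point is a tumour, with the shape for the line and the colour for the treatment (blue control, red galunisertib). Control tumours have fibroblast means from 6.61 to 7.86 and treated tumours from 6.32 to 7.10, and the lowest Fstl3 level, 6.57, belongs to the tumour with the lowest fibroblast mean.

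Genes with the most similar pattern were found by Pearson's r over 20 arrays on values centred within each line, as a description, leaving out members and genes with provisional names. For Fstl1 these were Bgn (0.96), which encodes the proteoglycan biglycan, and the collagen V genes Col5a1 (0.96) and Col5a2 (0.95). For Fstl3 they were Aebp1 (0.93), a collagen-binding protein gene, the lysyl hydroxylase gene Plod2 (0.92) and Parvb (0.92), which encodes a focal adhesion protein. Uncentred values were 0.93, 0.94 and 0.95 for the 3 genes beside Fstl1, and 0.93, 0.91 and 0.84 for those beside Fstl3. Each of these 6 genes had a lower mean in treated tumours in 5 of 5 lines, for example Plod2 at -1.16 (SE 0.24) and Parvb at -0.26 (SE 0.07).

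For Inhba the nearest genes were the phospholipase gene Pla1a (0.91), the tetraspanin gene Tspan6 (0.87) and the membrane mucin gene Muc1 (0.86, uncentred 0.54). For Acvr1 they were Sh3pxd2a (0.87), an adaptor of podosomes, Las1l (0.86) and the ligand gene Wnt2b (0.85, uncentred 0.48). For Acvr2a they were Maf1 (0.93), a repressor of RNA polymerase III, Dop1b (0.91) and the mannosidase gene Man1a2 (0.91). For Fst they were the collagen gene Col1a2 (0.80), the checkpoint ligand gene Cd274 (0.77, uncentred 0.28) and Pnpla7 (0.76, uncentred -0.21), so that the likeness of Cd274 and Pnpla7 to Fst was within lines and not across them. The points share arrays and treatment, and with 15556 genes compared the top values are high by choice. Among members, Fstl1 and Fstl3 were most alike (centred 0.82, uncentred 0.84), followed by Inhba with Fstl1 (0.70) and Acvr1 with Acvr2a (0.68), while Fst and Acvr1 had 0.08.

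Further genes of the pathway were taken from a list of 43, of which 35 were tested. Of these 22 had lower and 13 higher means in treated tumours, with a median difference of -0.07, and limma passed 0 over all genes. At an unadjusted limma p under 0.05 there were 4 of the 35, beside 7.96% of all genes tested. Further ligands were lower for 3 of 4 tested, among them Gdf3 at -0.11 (SE 0.10) and Gdf11, a relative of myostatin, at -0.14 (SE 0.14), while Inha, Inhbc, Gdf1 and Mstn were not tested. Further receptors were lower for 5 of 6 tested, with the endothelial type I receptor gene Acvrl1 at -0.28 (SE 0.14) and the type II receptor gene Acvr2b at -0.13 (SE 0.09). Acvr1b, which encodes the main type I receptor of activin, differed by 0.05 (SE 0.08). Further antagonists were lower for 6 of 7 tested, with Lefty1, an inhibitor of Nodal signalling, at -0.07 (SE 0.06), and the pseudoreceptor gene Bambi was the only higher one at 0.18 (SE 0.11).

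Signal mediators were higher for 6 of 6 tested when averaged over lines. Smad4, the partner of receptor-activated SMADs, differed by 0.30 (SE 0.16) and Smad2 by 0.29 (SE 0.22). The lines were not alike in this. The mean difference of the 6 genes was 0.61 in MTO68, 0.23 in MTO207 and 0.07 in MTO140, but -0.13 in MTO93 and -0.09 in MTO54. Of the proprotein convertases, which cleave precursors such as those of activins, 2 of 4 were lower. Pcsk5 differed by -0.61 (SE 0.17, limma adjusted p = 0.263) and was lower in 5 of 5 lines, and Pcsk7 by 0.25 (SE 0.12). Other follistatin-domain proteins were lower for 6 of 8 tested. Sparc, which encodes a collagen-binding matrix glycoprotein, differed by -0.56 (SE 0.13, limma adjusted p = 0.158) and its relative Sparcl1 by -0.64 (SE 0.17, limma adjusted p = 0.253), both lower in 5 of 5 lines.

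**Figure D4:**
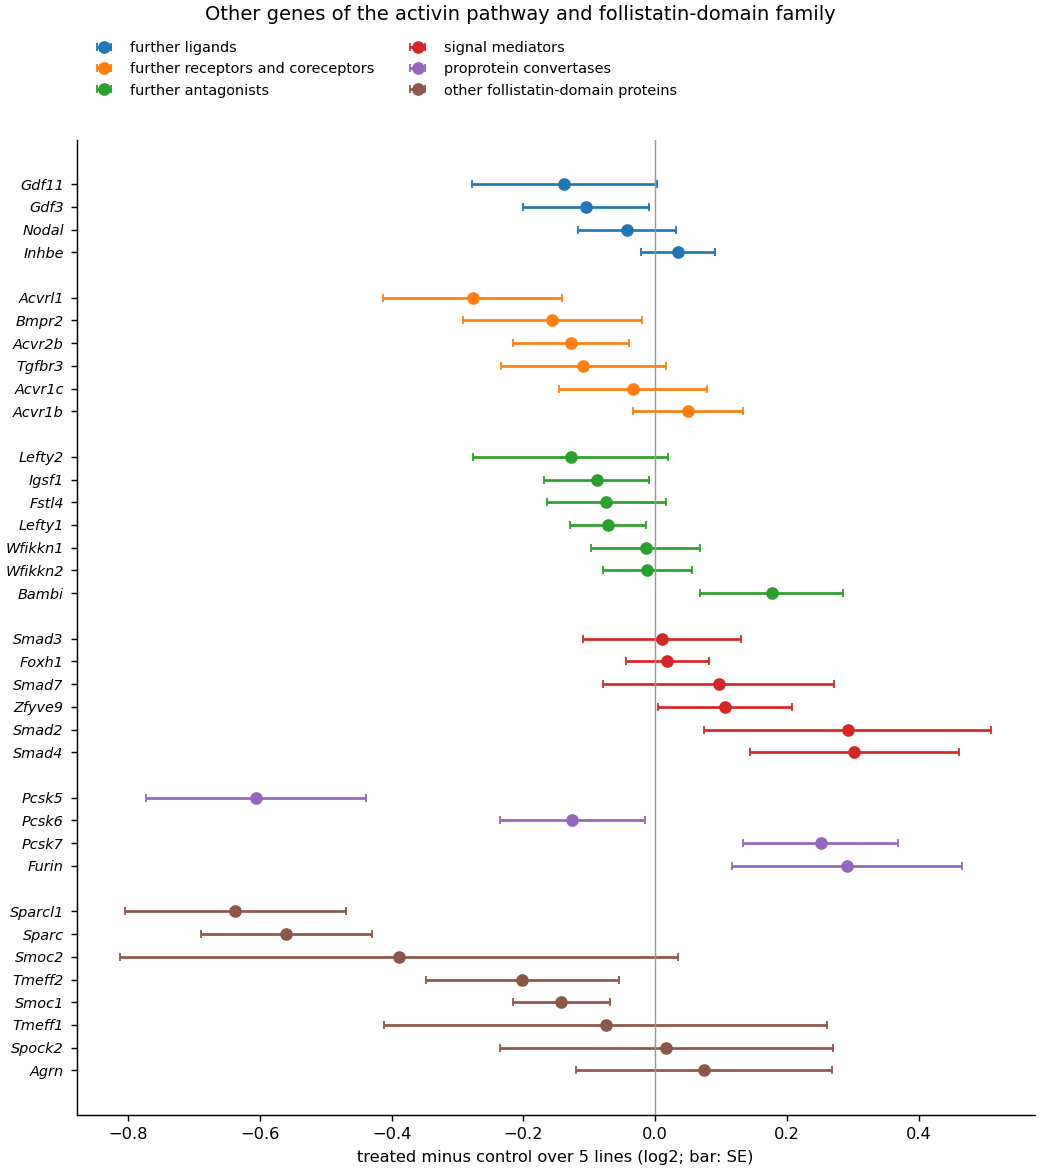
Treated minus control differences over 5 lines on the log2 scale for 35 further genes of the activin pathway and the follistatin-domain family, coloured and grouped by role. Points are differences from the fit with line as a block, and bars are SEs. The lowest points are Sparcl1 at -0.64, Pcsk5 at -0.61 and Sparc at -0.56.

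Between lines, 3 of the 35 pathway genes passed the F test in control tumours, beside 2.8% of all genes, named after their values were seen (limma adjusted p of 0.0318 for Spock2, 0.0429 for Smoc2 and 0.0454 for Smad3). Spock2 and Smoc2 encode secreted proteins of the SPARC family. Smoc2 averaged 9.86 ± 0.13 in MTO68 and from 5.41 ± 0.77 in MTO207 to 7.61 ± 1.10 in MTO54 elsewhere (SD, n = 2). Spock2 averaged 8.31 ± 1.90 in MTO68 and 4.75 to 5.63 in the other lines. Smad3, the transcription factor downstream of activin and TGF-beta receptors, was lowest in MTO68 at 8.22 ± 0.50 and lay between 8.84 and 9.44 in the other lines. For all 3 genes MTO68 was thus the line at the end of the order. Its control replicate 2 is the array with the narrow spread, and values without that array are not given for these genes.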

How the data were processed

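RNA of 20 tumours was hybridised with 1 array per tumour. The deposited values are log2 levels per probe set. Per the submitters' processing notes they came from RMA and affy, without versions. RMA is a method that corrects background, normalizes by quantiles and summarises probes. The deposited arrays nevertheless did not share a single distribution, with medians of 4.93 to 5.12 and SDs of 1.46 to 1.83. The reason was not tested. Of 45141 probe sets, 28898 had a single gene symbol, 551 several and 15588 none named here, and 104 were controls. By Entrez ID 28689 were updated to current symbols.

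Genes above 4.16 on at least 2 arrays were tested (15556) with limma 3.58.1 in R 4.3.3 (eBayes with trend, two-sided, Benjamini-Hochberg over all genes). Treatment over lines used the line as a block. Differences within lines and line levels came from a model of 10 group means. The series' design text calls the 2 tumours of a group biological replicates, and replicate numbers follow the order of the samples. The model was checked on simulated data. Members and lists were chosen with earlier results of these data known. Named pathway genes are the 2 of smallest p per role. Acvr1b was added after its values were seen. Promoters came from RefSeq. Inhbb was not analysed here, and the number of arrays limits precision.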

Additional observations from a re-analysis of the deposited data

Results flagged for a closer look

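One value stood far from its group. Inhba in the 10 control tumours had its highest level, 10.16 in MTO54 control replicate 1, at a distance from the next tumour of 0.522 of the whole range, past Dixon's limit for 10 samples. The other MTO54 tumours had 8.02, 8.58 and 9.25. Dixon's limit assumes tumours of a single kind, among which about 1 in 20 groups would be flagged, and 12 groups were looked at. These controls came from 5 lines, and Inhba was highest in MTO54. The flag therefore cannot tell a far tumour from a line with a higher level, and it serves as a description only.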

How the results depend on the processing

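The 6 differences over lines moved by less than 1 SD of the replicates in all 206 recomputations. That SD was larger than the difference itself for Inhba (0.95), Acvr1 (0.36), Acvr2a (0.32) and Fst (0.29), so for these a vanished difference also stayed within it. With array weights Inhba was -0.09 and Fst -0.02, and Inhba was 0.00 with its second probe set. With the array SD as a covariate Acvr1 was -0.34 and Acvr2a turned to -0.11. Within lines 37 of 370 values moved by more than that SD, as with the array SD as a covariate in MTO68 (Inhba -2.29, Acvr1 -0.71). Genes passing for treatment numbered 0, and 55 after quantile normalization, 116 with array weights, 166 with the array SD as a covariate, 10 without MTO68 and 2 without MTO54, and 0 to 43 without single tumours (43 without MTO68 control replicate 2, 20 without MTO54 control replicate 2). Genes passing between lines numbered 436, and 929 after quantile normalization, 174 with array weights, 8080 over all 4 tumours of a line, and 125 (without MTO54 control replicate 1) to 7331 (without MTO68 control replicate 2) without single controls. Where an omission left 1 tumour in a group, it was assumed to vary like the others. No paired analysis was possible because the labels carry no replicate numbers shared between groups. The number of tumours, 2 per group, limits all comparisons.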
